A study of Mus musculus with 2 samples.

Results

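This report describes 10 genes of the tumour necrosis factor (TNF) superfamily and its feedback loop, *Tnf*, *Tnfrsf1a*, *Tnfrsf1b*, *Tnfsf14*, *Ltb*, *Ltbr*, *Tnfaip3*, *Traf1*, *Birc3* and *Tnfrsf9*, in mouse periodontal tissue. They were chosen by name from the 31053 genes of the count tables, with no threshold on their values, and all 10 were present. Earlier results of these data were known when they were chosen. Single-cell RNA sequencing was performed on 2 libraries, 1 from untreated control mice and 1 from mice with ligature-induced periodontitis (LIP), in which a thread tied around a tooth gathers bacteria and inflames the gingiva. All mice were wild-type C57BL/6 aged 8 weeks, and each library pooled the gingiva and the scraped alveolar bone surface of 5 mice after enzymatic digestion, with the LIP tissue taken 7 days after ligation. Because the animals of a condition were pooled, no spread between animals could be measured and no test between conditions was possible. The intervals given are 95% intervals of counting error alone, the higher and lower levels below compare these 2 libraries, and a difference between the libraries cannot be told apart from an effect of the ligature.

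TNF is made as a membrane protein by activated myeloid and lymphoid cells and is cut free by a protease. It binds TNFR1, encoded by *Tnfrsf1a* and present on most cell types, and TNFR2, encoded by *Tnfrsf1b* and found mainly on leukocytes and endothelium. Receptor binding activates the transcription factor NF-κB, which raises inflammatory genes and also the genes that restrain the pathway. In periodontal lesions TNF is known for recruiting leukocytes and for promoting osteoclast formation.

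All 10 members were matched in the RefSeq promoter table, which holds 12 windows for them on GRCm38.p6, the same build as mm10, since *Tnfaip3* and *Tnfrsf9* have 2 starts each. A window runs from 250 bases before a transcription start to 50 bases after it. *Tnf* and *Ltb* lie 3061 bases apart on chromosome 17, and *Tnfrsf1a* and *Ltbr* lie 35477 bases apart on chromosome 6. The windows were searched on both strands for the NF-κB consensus motif and for the AP-1 motif TGANTCA, which do not overlap each other in any member. The NF-κB consensus was present in windows of 3 members (*Ltb*, *Tnfaip3* and *Tnfrsf9*) and in 8.46% of all 32851 promoter windows of mouse genes. The AP-1 motif was present in windows of 3 members (*Tnfaip3*, *Tnfrsf9* and *Tnfsf14*) and in 7.81% of all windows. A match is a description of the letters and was not tested as a binding site.

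The 250 bases before the start are shown for the ligand whose transcripts differed most between the libraries, for its neighbour, for the feedback inhibitor and for the receptor that marked T cells, with matches to either motif in capitals. Those of *Tnf* lie at chr17:35202008-35202257 on the minus strand, those of *Ltb* at chr17:35194257-35194506 on the plus strand, those of *Tnfaip3* (upstream start) at chr10:19015411-19015660 on the minus strand and those of *Tnfrsf9* (downstream start) at chr4:150927749-150927998 on the plus strand.
Tnf: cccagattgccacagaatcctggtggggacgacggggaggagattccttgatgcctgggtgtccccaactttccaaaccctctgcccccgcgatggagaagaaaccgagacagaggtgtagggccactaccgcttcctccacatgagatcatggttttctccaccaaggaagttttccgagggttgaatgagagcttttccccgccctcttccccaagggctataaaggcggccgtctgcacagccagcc
Ltb: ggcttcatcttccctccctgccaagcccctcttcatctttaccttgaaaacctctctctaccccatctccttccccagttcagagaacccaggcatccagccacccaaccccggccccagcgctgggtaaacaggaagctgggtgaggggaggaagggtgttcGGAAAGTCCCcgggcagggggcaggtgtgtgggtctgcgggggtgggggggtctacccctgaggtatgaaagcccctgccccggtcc
Tnfaip3: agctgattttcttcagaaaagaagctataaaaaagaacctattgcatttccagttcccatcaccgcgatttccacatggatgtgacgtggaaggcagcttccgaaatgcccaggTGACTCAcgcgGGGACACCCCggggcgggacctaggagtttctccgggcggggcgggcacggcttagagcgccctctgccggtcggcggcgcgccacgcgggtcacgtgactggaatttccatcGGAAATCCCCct
Tnfrsf9: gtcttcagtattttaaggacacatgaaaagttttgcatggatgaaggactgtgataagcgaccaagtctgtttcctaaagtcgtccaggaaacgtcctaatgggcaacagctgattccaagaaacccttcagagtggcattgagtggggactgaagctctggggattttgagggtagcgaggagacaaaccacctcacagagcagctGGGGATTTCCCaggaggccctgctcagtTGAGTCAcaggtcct
The *Tnf* stretch held no match to either motif. The *Ltb* stretch held 1 NF-κB match. The *Tnfaip3* stretch held 2 NF-κB matches, the second of them ending 3 bases before the start, and an AP-1 match. In *Tnfrsf9* the 11 capital bases are 2 overlapping NF-κB matches, and an AP-1 match follows.

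Cells were kept under the study's limits on genes, UMIs (unique molecular identifiers, each counting 1 captured transcript) and mitochondrial share, which left 936 of 1212 barcodes of LIP and 883 of 1169 of control, at medians of 5595 and 10845 UMIs. The libraries shared 2 barcodes. Clusters were named from their markers with the 10 members and the other pathway genes left out of the clustering genes, and 8 classes had at least 20 cells in each library. LIP and control held 322 and 52 neutrophil-like cells, 84 and 43 macrophage-like cells, 27 and 51 T-like cells, 94 and 244 epithelial-like cells, 62 and 120 fibroblast-like cells, 79 and 48 vascular endothelial-like cells, 45 and 46 mural-like cells and 103 and 37 Schwann-like cells. The B-like class held 19 LIP and 154 control cells and is given as levels only. Fibroblast-like cells, which may be the cells that the study calls osteogenic, split into a sub-cluster led by *Ibsp* and *Mmp13* (40 cells in each library) and one led by *Clec3b*, *Inmt* and *Mfap4* (22 LIP and 80 control cells). Levels are UMIs of a gene scaled to counts per 1000000 UMIs of a class (CPM), and since 1 UMI is counted per transcript 3′ end they are not divided by gene length.

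**Figure D1:**
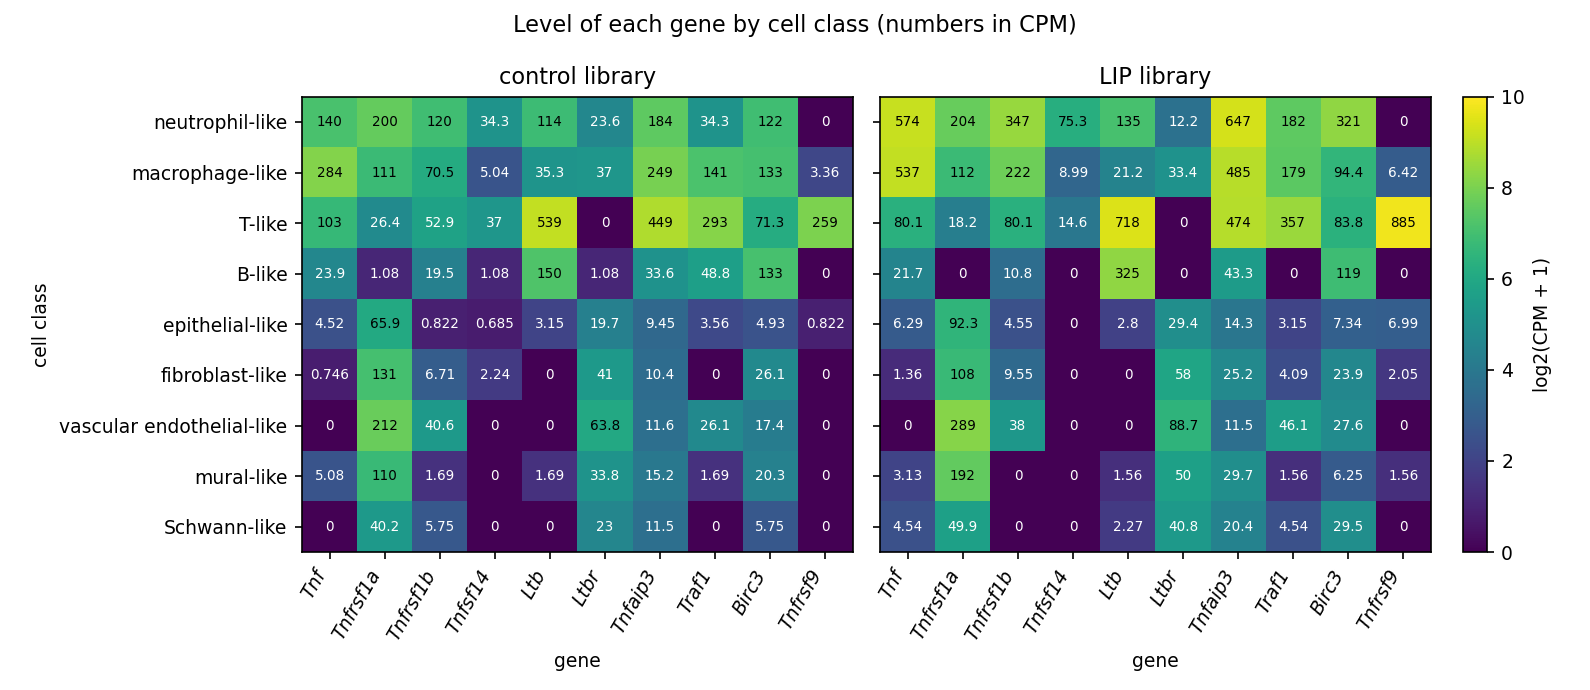
Level of the 10 genes (columns) in 9 cell classes (rows) of the control library (left) and the LIP library (right), in CPM, with colour showing log2(CPM + 1). The ligands *Tnf*, *Tnfsf14* and *Ltb* stand in the leukocyte rows, *Tnfrsf1a* and *Ltbr* span the stromal rows, and *Tnfrsf9* stands in the T-like row at 259 CPM in control and 885 CPM in LIP. The B-like row of LIP rests on 19 cells.

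*Tnf* transcripts were held by 2 classes in LIP. Neutrophil-like cells carried 51.0% and macrophage-like cells 45.6% of the *Tnf* UMIs of the LIP library, and in control they carried 19.2% and 49.9%. These shares depend on how many cells of each class were caught as well as on the level per cell. The level in LIP was 573.9 CPM in neutrophil-like cells and 537.4 CPM in macrophage-like cells, which differed by 0.09 on the log2 scale (−0.04 to 0.23). That difference was within counting error. Neutrophil-like cells also came first, by small margins, under the other clustering settings and with cells flagged as doublets left out. With 15 dimensions, for example, the levels were 567.6 and 559.8 CPM. With every cell weighing the same the levels were 809.5 CPM in neutrophil-like and 630.4 CPM in macrophage-like cells. At a mitochondrial limit of 5% the order was reversed, at 561.9 and 1021 CPM, with 31.0% of the *Tnf* UMIs in macrophage-like cells. That class was then another set of cells, a sub-cluster of 31 LIP cells led by *Ccl5*, *Arg1* and *Saa3*, with no control cell. A sub-cluster led by *Tff2*, *Muc5b* and *H2-Eb1*, with 51 LIP and 55 control cells, stayed unnamed there. In control macrophage-like cells came first with 283.8 CPM, above the 139.5 CPM of neutrophil-like cells by 1.03 (0.60 to 1.46). T-like cells followed at 80.1 CPM in LIP and 103.1 CPM in control. No *Tnf* UMI was found in 79 LIP and 48 control vascular endothelial-like cells, which allows a level of up to 3.46 and 8.69 CPM, and fibroblast-like cells held 2 and 1 UMIs.

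In neutrophil-like cells *Tnf* was higher in LIP by 2.04 on the log2 scale (1.68 to 2.43), and in macrophage-like cells by 0.92 (0.68 to 1.17). Both classes lie above their control counterpart in summed level. The make-up of both differed between the libraries, as given below, and its part in the class ratios was not tested. In T-like cells, whose make-up also differed, the ratio was −0.36 (−1.19 to 0.43). It was −1.10 with 15 dimensions and −1.13 with every cell weighing the same. After each cell was thinned to 1000 UMIs, with shallower cells left out, a *Tnf* UMI was found in 39.3% of 313 LIP and 17.3% of 52 control neutrophil-like cells and in 30.5% of 82 LIP and 14.6% of 41 control macrophage-like cells, against none of 77 and 44 vascular endothelial-like cells. Without thinning the shares were 66.5% and 48.1% in neutrophil-like cells at medians of 3884 and 6529 UMIs and 77.4% and 48.8% in macrophage-like cells at 16190 and 13665 UMIs, against 0 of 79 and 0 of 48 vascular endothelial-like cells at 8504 and 5784 UMIs. In macrophage-like cells of control 1 cell held 75 of the 169 *Tnf* UMIs (44.4%), a cell with 244 UMIs of macrophage markers and none of mast cell markers. Without the cell with the most *Tnf* UMIs in each library the difference in macrophage-like cells was 1.49 (1.17 to 1.81), at 458.4 CPM in LIP and 163.8 CPM in control, and in neutrophil-like cells it was 2.41 (1.99 to 2.85).

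*Tnfsf14* encodes LIGHT, a ligand of the lymphotoxin β receptor and of HVEM that co-stimulates T cells. It was scarce, and neutrophil-like cells held 123 of its UMIs in LIP, which was 86.01% of that library. Their level was 75.3 CPM in LIP and 34.3 CPM in control, a difference of 1.13 (0.38 to 1.99). With every cell weighing the same it was 0.31. T-like cells held 4 UMIs in LIP and 14 in control, and no *Tnfsf14* UMI was found in LIP epithelial-like, fibroblast-like, vascular endothelial-like, mural-like or Schwann-like cells.

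*Ltb*, which encodes lymphotoxin β, the membrane anchor of the lymphotoxin heterotrimer, was highest in T-like cells in both libraries. T-like cells held 717.6 CPM in LIP and 539.1 CPM in control, a difference of 0.41 (0.12 to 0.70). Without the highest cell of each library, which held 60 and 50 UMIs, it was 0.34 (−0.00 to 0.68). Control B-like cells followed at 149.7 CPM, above control neutrophil-like cells by 0.40 (−0.07 to 0.88), which was within counting error. The 19 LIP B-like cells held 324.9 CPM. In neutrophil-like cells the level was 135.4 CPM in LIP and 113.7 CPM in control and differed by 0.25 (−0.19 to 0.71). Although the level per cell was low there, the large number of neutrophil-like cells in LIP carried 44.6% of the *Ltb* UMIs of that library, above the 39.7% of T-like cells. Fibroblast-like and vascular endothelial-like cells had no *Ltb* UMI in either library.

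The receptor genes were spread differently. *Tnfrsf1a* was found in every class compared, with the highest level in vascular endothelial-like cells at 289 CPM in LIP and 211.5 CPM in control. Neutrophil-like cells came next at 204 and 199.5 CPM. In LIP they were below vascular endothelial-like cells by 0.50 (0.26 to 0.74 between the counts), and in control the difference of 0.08 (−0.38 to 0.54) was within counting error. Fibroblast-like cells held 108.5 CPM in LIP and 130.6 CPM in control, macrophage-like cells 112.4 and 110.8 CPM and epithelial-like cells 92.3 and 65.9 CPM, while T-like cells held 18.2 and 26.4 CPM. Unlike *Tnf*, *Tnfrsf1a* did not pass 2-fold in any class.

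Between the libraries *Tnfrsf1a* differed by 0.03 (−0.30 to 0.38) in neutrophil-like cells and by 0.02 (−0.40 to 0.45) in macrophage-like cells. It was higher in LIP in mural-like cells, by 0.81 (0.36 to 1.26) from 110 to 192.2 CPM, in epithelial-like cells, by 0.49 (0.26 to 0.71), and in vascular endothelial-like cells, by 0.45 (0.07 to 0.85). The sub-clusters of mural-like and epithelial-like cells differed in this. In the mural-like sub-cluster led by *Myh11* and *Tagln* the ratio was 1.23 (0.49 to 2.0), and in the one led by *Rgs5* and *Vtn* it was 0.14 (−0.43 to 0.72). In the epithelial-like sub-cluster led by *Hist1h2ap* and *Top2a* it was 0.95 (0.58 to 1.31), in the one led by *Krt4* and *Krtdap* 0.37 (−0.11 to 0.84) and in the one led by *Pappa* and *Fst* −0.23 (−0.71 to 0.22). In fibroblast-like cells the ratio was −0.27 (−0.59 to 0.05), and the sub-clusters lay on either side of 0. In the *Ibsp* sub-cluster *Tnfrsf1a* was at 88.7 CPM in LIP and 140.7 CPM in control, a ratio of −0.67 (−1.16 to −0.16), and in the *Clec3b* sub-cluster it was at 150.2 and 126.2 CPM, a ratio of 0.25 (−0.19 to 0.69). The control library held most of its fibroblast-like cells in the *Clec3b* sub-cluster and the LIP library in the *Ibsp* sub-cluster. Summed immediate-early and heat-shock genes, which rise during tissue digestion, were at 23602 CPM in control and 9249 CPM in LIP mural-like cells and at 7768 and 5029 CPM in fibroblast-like cells, and their part in these values was not tested.

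*Tnfrsf1b* had its highest levels in neutrophil-like and macrophage-like cells. Its level was 346.7 CPM in LIP and 120.1 CPM in control neutrophil-like cells, a difference of 1.53 (1.13 to 1.95), and 221.5 and 70.5 CPM in macrophage-like cells, a difference of 1.65 (1.19 to 2.15). T-like cells held 80.1 and 52.9 CPM and vascular endothelial-like cells 38.0 and 40.6 CPM, and in LIP mural-like and Schwann-like cells no UMI was found. In control, T-like and vascular endothelial-like cells differed by 0.38 (−0.68 to 1.48), within counting error, and B-like cells held 19.5 CPM. The order of the receptor genes, summed over each myeloid class, therefore differed between the libraries. In LIP *Tnfrsf1a* was below *Tnfrsf1b* in neutrophil-like cells (333 against 566 UMIs, a log2 ratio of −0.77, −0.96 to −0.57) and in macrophage-like cells (175 against 345 UMIs, −0.98, −1.25 to −0.71). In control it was above it in both, by 0.73 (0.24 to 1.24) in neutrophil-like cells and by 0.65 (0.07 to 1.25) in macrophage-like cells. Stromal classes stayed on the *Tnfrsf1a* side in both libraries, with ratios of 3.51 in LIP and 4.28 in control for fibroblast-like cells and 2.93 and 2.38 for vascular endothelial-like cells. T-like cells were on the *Tnfrsf1b* side, at −2.14 in LIP and −1.0 in control, where the control interval (−2.26 to 0.16) included 0. In the *Csf3r* sub-cluster of neutrophil-like cells described below, *Tnfrsf1b* was above *Tnfrsf1a* in LIP, at 463.5 against 283.4 CPM. In control the 2 levels there were close, at 335.1 against 309.8 CPM from 53 and 49 UMIs. In the *Ltf* sub-cluster *Tnfrsf1a* was above *Tnfrsf1b* in both libraries, with 66 against 6 UMIs in LIP and 44 against 3 in control. Neither of these sub-clusters thus showed a reversed order. The libraries mixed the sub-clusters differently, and the part of that mix in the summed order was not tested.

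**Figure D2:**
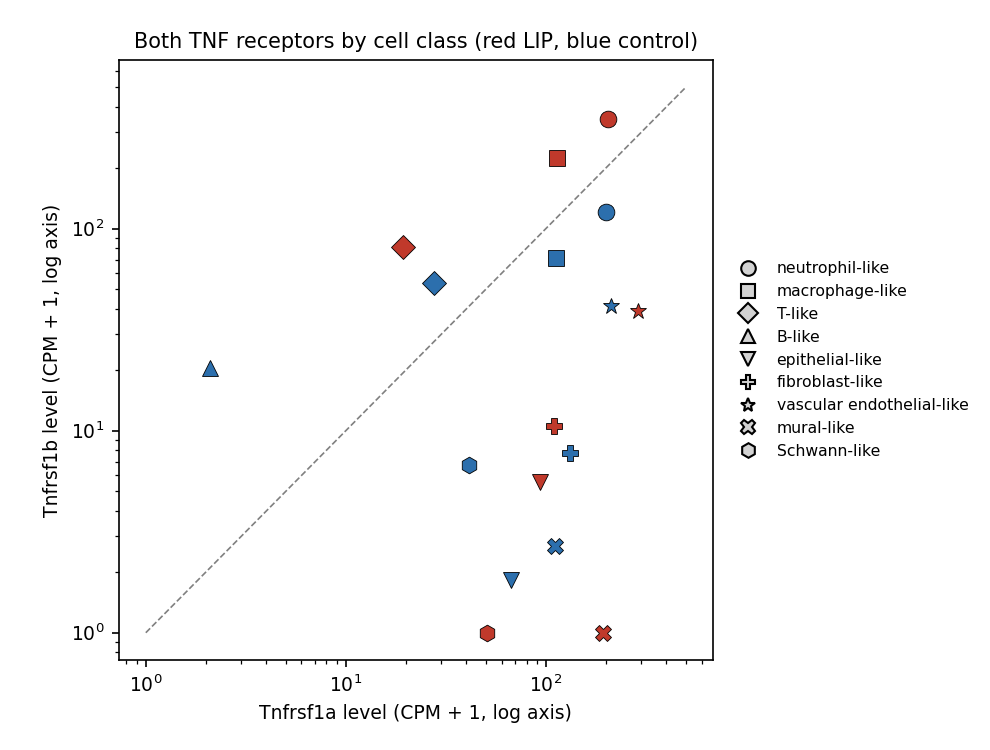
Level of *Tnfrsf1a* (x axis) and *Tnfrsf1b* (y axis), both as CPM + 1 on log axes, with 1 marker shape for each cell class, red for LIP and blue for control, and the dashed line marking equal levels. LIP neutrophil-like and macrophage-like cells lie above the line with 347 and 222 CPM of *Tnfrsf1b*, and their control counterparts lie below it. Levels are summed over a class and not split by sub-cluster. LIP B-like cells are not drawn because they number 19.

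*Ltbr*, the receptor for lymphotoxin and LIGHT, was a gene of stromal, epithelial and myeloid cells. The level was 88.7 CPM in LIP and 63.8 CPM in control vascular endothelial-like cells, 58 and 41.0 CPM in fibroblast-like cells and 29.4 and 19.7 CPM in epithelial-like cells. No *Ltbr* UMI was found in 27 LIP or 51 control T-like cells, where its ligand gene *Ltb* was highest, which allows up to 10.9 and 7.93 CPM. The ratio of LIP over control was 0.57 (0.17 to 0.97) in epithelial-like and 0.50 (−0.01 to 1.02) in fibroblast-like cells, and in the *Clec3b* sub-cluster it was 0.91 (0.24 to 1.58). In neutrophil-like cells *Ltbr* was at 12.2 CPM in LIP and 23.6 CPM in control, a ratio of −0.95 (−2.08 to 0.26) from 20 and 11 UMIs.

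*Tnfrsf9* encodes 4-1BB, a receptor that co-stimulates activated T cells. T-like cells held 87.7% of its UMIs in LIP and 92.5% in control. The level in them was 885.1 CPM in LIP and 259 CPM in control, a difference of 1.77 (1.43 to 2.13), and 20 of 27 LIP (74.1%) and 10 of 51 control (19.6%) T-like cells had a UMI. Neutrophil-like cells had no *Tnfrsf9* UMI in 322 LIP cells, which allows a level of up to 1.84 CPM. In control 1 T-like cell held 35 of the 98 UMIs, and without the highest cell of each library the difference was 2.33 (1.92 to 2.76). *Tnfrsf9* overlaps the opposite-strand gene *Camta1* in the annotation.

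T-like cells of the 2 libraries were not of the same make-up. A UMI of *Trdc*, the constant region of the δ chain of the γδ T cell receptor, was found in 12 of 27 LIP (44.4%) and in 8 of 51 control (15.7%) T-like cells. The split by *Trdc* was chosen after the values were seen, and a γδ T cell without a *Trdc* UMI counts on the other side. In cells with *Trdc* the *Tnfrsf9* level was 1270 CPM in LIP (1094 to 1467) and 932.2 CPM in control (753.3 to 1141), and 12 of 12 and 7 of 8 of them had a UMI. In cells without *Trdc* it was 444.9 CPM in LIP (336.9 to 576.4) and 14.4 CPM in control (3.93 to 36.9), with a UMI in 8 of 15 and 3 of 43 cells. *Ltb* was at 860.6 and 773.5 CPM in cells with *Trdc* and at 554.1 and 453.9 CPM in cells without it. *Tnf* lay in opposite directions, although its intervals overlapped in cells with *Trdc*. In cells with *Trdc* it was at 122.9 CPM in LIP (72.9 to 194.3, 18 UMIs) and 39.7 CPM in control (10.8 to 101.6, 4 UMIs). In cells without *Trdc* it was at 31.2 CPM in LIP (8.51 to 79.9, 4 UMIs) and 126.1 CPM in control (87.8 to 175.4, 35 UMIs). Single cells weighed heavily here. Of the 18 *Tnf* UMIs in LIP cells with *Trdc*, 10 came from 1 cell. Of the 35 in control cells without *Trdc*, 12 came from 1 cell. Median depth was 10792 UMIs in LIP and 12395 in control for cells with *Trdc* and 7213 and 6330 for the rest. Natural killer and innate lymphoid markers summed to 2098 CPM in LIP and 739.9 CPM in control T-like cells, and their part in the *Tnfrsf9* values was not tested.

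**Figure D3:**
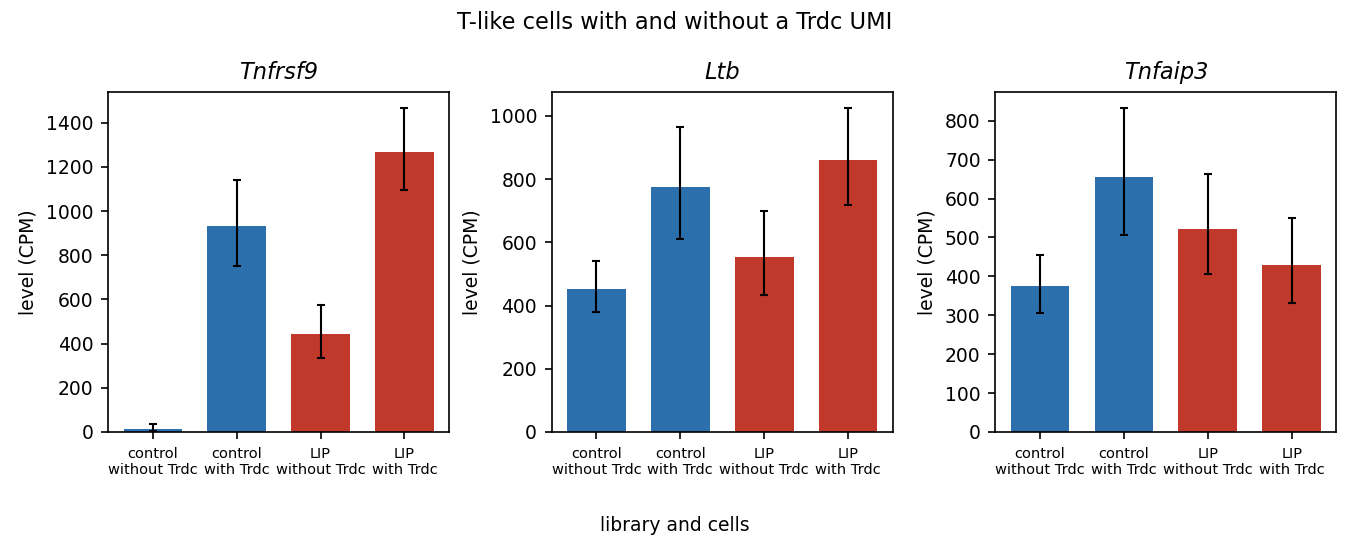
Level in CPM (y axis) of *Tnfrsf9*, *Ltb* and *Tnfaip3* in T-like cells with and without a *Trdc* UMI, blue for control and red for LIP, with bars for summed levels and error bars for 95% Poisson intervals. *Tnfrsf9* is at 14.4 CPM in control cells without *Trdc* and at 445 to 1270 CPM in the other groups.

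Genes of the feedback arm were higher in LIP beside *Tnf* in neutrophil-like cells, and parted from it in other classes. *Tnfaip3* encodes A20, a ubiquitin-editing enzyme that shuts off NF-κB signalling, and is itself an NF-κB target. Its level was 647.4 CPM in LIP and 184.5 CPM in control neutrophil-like cells, a difference of 1.81 (1.49 to 2.15), and 484.7 and 248.6 CPM in macrophage-like cells, a difference of 0.96 (0.71 to 1.23). T-like cells held 473.5 and 449.2 CPM, a difference of 0.08 (−0.26 to 0.41). *Tnfaip3* thus stood in LIP at a similar level in macrophage-like and T-like cells, whereas in control T-like cells were highest. In fibroblast-like cells it was at 25.2 CPM in LIP and 10.4 CPM in control, a difference of 1.27 (0.35 to 2.28), with 17 of the 37 LIP UMIs in 1 cell. Without the highest cell of each library the interval of that difference included 0, at 1.21 (−0.04 to 2.60).

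*Traf1*, an adaptor of TNF receptor complexes, and *Birc3*, which encodes the ubiquitin ligase cIAP2 that restrains cell death at TNFR1, differed in their pattern. *Traf1* was at 181.9 CPM in LIP and 34.3 CPM in control neutrophil-like cells, the difference of 2.41 (1.68 to 3.23) being the highest of the members in that class, and 7 of the 16 control UMIs came from 1 cell. In macrophage-like cells it was at 179.1 and 141.1 CPM, a difference of 0.34 (−0.01 to 0.71), and T-like cells held the highest level, at 357 CPM in LIP and 293.3 CPM in control. *Birc3* was at 321 CPM in LIP and 122.3 CPM in control neutrophil-like cells, a difference of 1.39 (1.0 to 1.81). In macrophage-like cells *Birc3* was lower in LIP, at 94.4 against 132.7 CPM, a ratio of −0.49 (−0.90 to −0.08). That ratio was not stable, and it was −0.31 (−0.75 to 0.15) without the highest cell of each library. It was −0.22 after the doublets called by Scrublet were left out and cells clustered again, and 0.06 with every cell weighing the same. Control B-like cells held 133.4 CPM of *Birc3* and 32.0% of its UMIs in that library.

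Counted over the members with at least 20 UMIs in both libraries together, 6 of 9 were at least 2-fold higher in LIP in neutrophil-like cells, where 12.1% of the 5182 genes passing the same minimum were, and 0 were at least 2-fold lower, where 6.00% of all genes were. With every cell weighing the same 4 of them were higher, since *Tnfrsf1b* and *Tnfsf14* were then at 0.87 and 0.31. The member not counted, *Tnfrsf9*, had no UMI in that class in either library. In the classes below, the members not counted had fewer than 20 UMIs in all. These counts are a description, since a gene can reach the minimum through the library where it is high. The members were also chosen with earlier results of these data known. In macrophage-like cells 1 of 8 (*Tnfrsf1b*) was higher, against 10.0% of 7717 genes, and 0 were lower, against 6.06%. In T-like cells 1 of 7 (*Tnfrsf9*) was higher, against 10.4% of 4113 genes, and 0 were lower, against 8.19%. *Tnf* and *Tnfaip3* in macrophage-like cells, at 1.89-fold and 1.95-fold, lay just inside the limit. The macrophage-like count was 3 with every cell weighing the same and without the highest cell of each library. It was also 3 without the doublets called by Scrublet, where cells were clustered again. The class then held sub-clusters of 53 and 11 control cells in place of 43 cells.

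In fibroblast-like cells 1 of 5 (*Tnfaip3*) was at least 2-fold higher, against 5.20% of 9712 genes, and 0 were lower, against 8.09%. *Tnfaip3* did not pass 2-fold within either sub-cluster, at 0.98 (−0.76 to 2.72) in the *Clec3b* and 0.81 (−0.41 to 2.24) in the *Ibsp* sub-cluster, nor with 15 dimensions, at 0.69. In epithelial-like cells 1 of 8 (*Tnfrsf9*) was higher, against 5.48% of 11595 genes, and 0 were lower, against 3.08%. That count rests on a single cell, which held 19 of the 20 *Tnfrsf9* UMIs of LIP epithelial-like cells and also 96 UMIs of T cell markers. In vascular endothelial-like cells 0 of 5 were higher and 0 lower (8.04% and 5.42% of 7213 genes), in mural-like cells 0 of 3 (5.78% and 4.91% of 6971 genes) and in Schwann-like cells 0 of 2 (6.18% and 7.19% of 4754 genes). The median log2 ratio of all genes was −0.01 in neutrophil-like, 0.04 in macrophage-like, 0.10 in T-like and −0.13 in fibroblast-like cells.

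**Figure D4:**
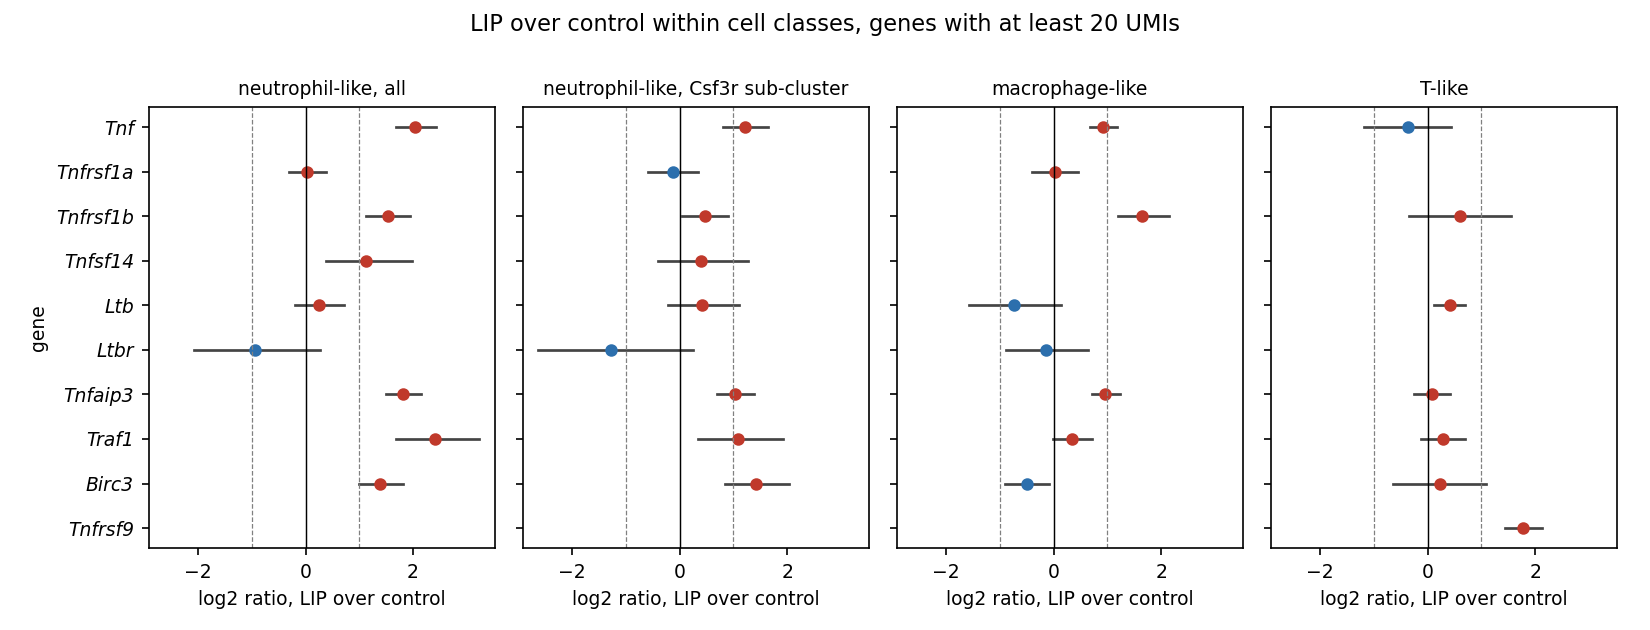
Log2 ratio of LIP over control (x axis) for each gene (y axis) in neutrophil-like cells, in their *Csf3r* sub-cluster, in macrophage-like cells and in T-like cells, with points for ratios, lines for 95% intervals of counting error and dashed lines at 2-fold in each direction. In neutrophil-like cells 6 genes lie past 2-fold on the LIP side, in the *Csf3r* sub-cluster 4 do, and genes with fewer than 20 UMIs are not drawn.

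Neutrophil-like cells fell into 3 sub-clusters under the main clustering setting, and the libraries mixed them differently. A sub-cluster led by *Ltf*, *Ngp* and *Camp*, genes of granules made by immature neutrophils, accounted for 40 cells of LIP and 19 of control. The largest was marked by *Csf3r*, *Acod1* and *Trem1*, with 228 cells of LIP and 33 of control, and the last by the chemokine genes *Ccl3* and *Ccl4* with *Il1rn*, with 54 cells of LIP and none of control. Immature neutrophil markers accordingly summed to 54182 CPM in control and 31110 CPM in LIP neutrophil-like cells. The *Ltf* sub-cluster was deeper, at medians of 12203 UMIs in LIP and 14499 in control against 3816 and 3753 in the *Csf3r* sub-cluster, so it weighed more in the summed control level than its number of cells.

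Within LIP the members followed these sub-clusters. *Tnf* was at 34.0 CPM in the *Ltf*, 792.8 CPM in the *Csf3r* and 1305 CPM in the *Ccl3* sub-cluster, and *Tnfrsf1b* was at 10.2, 463.5 and 901.1 CPM. *Traf1* had no UMI in the *Ltf* sub-cluster and was at 214.6 CPM in the *Csf3r* and 635.4 CPM in the *Ccl3* sub-cluster, the last 2.96-fold apart. *Tnfaip3* separated only the *Ltf* sub-cluster, at 85.0 CPM against 970.7 and 930 CPM. Between the *Csf3r* and *Ccl3* sub-clusters the order was the opposite for *Tnfrsf1a*, *Ltb* and *Tnfsf14*. They were lower in the *Ccl3* sub-cluster, with 115.5 against 283.4 CPM, 69.3 against 193.9 CPM and 63.5 against 123.9 CPM. In the *Ltf* sub-cluster *Ltb* was at 68.0 CPM, close to its *Ccl3* level, and *Tnfsf14* was lowest, at 6.80 CPM. *Tnfrsf1a* was as low in the *Ccl3* as in the *Ltf* sub-cluster (112.3 CPM), with a log2 ratio of the *Ltf* over the *Ccl3* sub-cluster of −0.04 (−0.78 to 0.76). These sub-clusters were drawn from genes other than the members but from the same cells, so the levels are a description without a test.

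The comparison within the *Csf3r* sub-cluster alone was chosen after the data were seen. It leaves out the LIP cells of the *Ccl3* sub-cluster, which other clustering settings did not draw apart. *Tnf* was at 792.8 CPM in LIP and 341.4 CPM in control, a difference of 1.22 (0.81 to 1.64) in place of 2.04 over all neutrophil-like cells. *Tnfaip3* differed by 1.03 (0.69 to 1.39), *Traf1* by 1.08 (0.35 to 1.92) and *Birc3* by 1.42 (0.85 to 2.04), the last close to its value over all neutrophil-like cells. *Tnfrsf1b* differed by 0.47 (0.05 to 0.91) and *Tnfsf14* by 0.39 (−0.40 to 1.27), and neither passed 2-fold. There 4 of 9 members were at least 2-fold higher, against 11.3% of 3414 genes, and 1 (*Ltbr*, from 16 and 7 UMIs) was lower, against 8.06%. Within the *Ltf* sub-cluster 1 of 5 (*Tnfaip3*, 85.0 against 35.7 CPM) was higher, against 8.15% of 3410 genes, and 0 were lower, against 2.82%, while *Tnf* was at 34.0 CPM in LIP and 35.7 CPM in control.

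**Figure D5:**
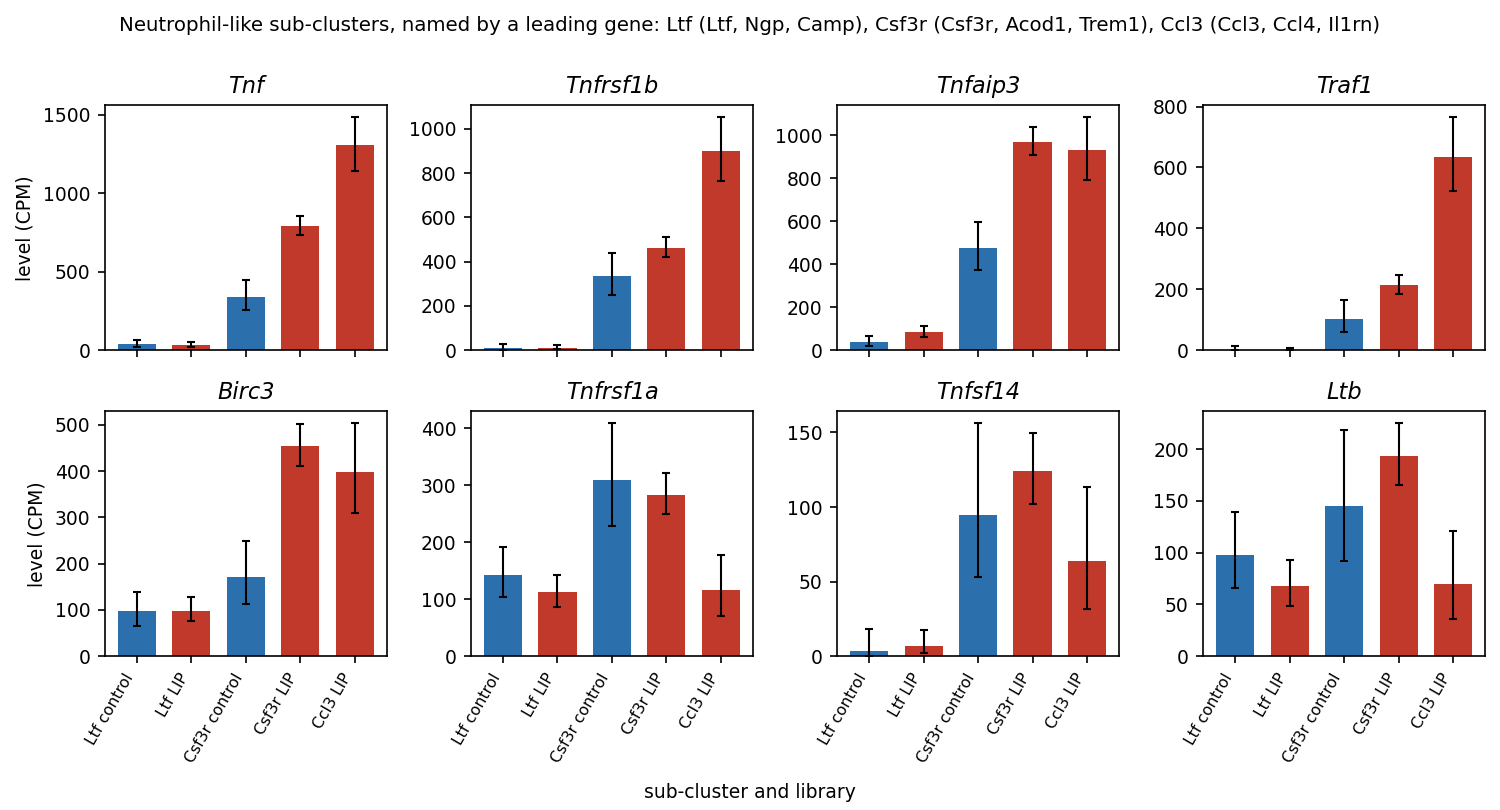
Level in CPM (y axis, starting at 0) of 8 genes in the *Ltf*, *Csf3r* and *Ccl3* sub-clusters of neutrophil-like cells, blue for control and red for LIP, with 95% Poisson intervals. *Tnf*, *Tnfrsf1b* and *Traf1* are highest in the *Ccl3* sub-cluster of LIP, at 1305, 901 and 635 CPM, and at most 35.7 CPM in the *Ltf* sub-cluster of both libraries.

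In single cells the feedback genes were found more often where *Tnf* was found. Among 313 LIP neutrophil-like cells thinned to 1000 UMIs, 123 had a *Tnf* UMI. A *Tnfaip3* UMI was present in 58.5% of them and in 37.4% of the rest, a *Traf1* UMI in 25.2% and 10.5%, a *Tnfrsf1b* UMI in 43.1% and 31.6% and an *Ltb* UMI in 21.1% and 9.47%. *Tnfrsf1a* was present in 24.4% and 22.1%. Spearman correlations of the thinned counts with *Tnf* were 0.23 for *Tnfaip3*, 0.20 for *Traf1* and 0.02 for *Tnfrsf1a*, over cells of 1 library that share their source, and the sub-clusters described above run through them. In 82 LIP macrophage-like cells a *Tnfaip3* UMI was found in 44% of the 25 cells with *Tnf* and in 24.6% of the rest.

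Other genes of the pathway were counted by list in the same classes, and each count is to be read against the share of all genes past 2-fold, which in neutrophil-like cells was 12.1% higher and 6.00% lower. The neutrophil-like counts are over all cells of the class, whose sub-clusters the libraries mixed differently, and were not taken within a sub-cluster. The lists, like the members, were chosen with earlier results of these data known. Of 20 TNF-induced genes 15 passed the minimum in neutrophil-like cells, 11 of them were at least 2-fold higher in LIP and 0 lower, with a median log2 ratio of 1.55 against −0.01 for all genes. Of 15 genes of NF-κB negative feedback 13 passed, 5 were higher and 0 lower (median 0.82), and of 24 other TNF receptors 6 passed, 5 were higher and 0 lower (median 1.95). Among 9 genes of TNF processing 7 passed, 2 were higher and 0 lower, and among 24 genes of receptor-proximal signalling 16 passed, 2 were higher (*Cflar* and *Birc2*) and 1 lower (*Chuk*, from 12 and 11 UMIs), with a median of −0.19. The 5 feedback genes that were higher were *Nfkbia*, *Nfkbib*, *Nfkbie*, *Nfkbiz* and *Tnip1*, all of them inhibitors or modulators of NF-κB, with *Nfkbia* (IκBα) at 4149 CPM in LIP and 1292 CPM in control. The 5 receptors were *Tnfrsf12a*, *Tnfrsf23*, *Tnfrsf26*, *Fas* and *Relt*, with *Fas* at 215.6 and 49.3 CPM, and the processing genes were *Adam17*, which encodes the protease that frees TNF, and *Zfp36l1*. These genes were named after their values were seen, because they are few. Of 15 other TNF superfamily ligands 1 passed, *Tnfsf13b*, at 29.4 CPM in LIP and 36.5 CPM in control. Immediate-early and heat-shock genes were also higher in 5 of 14 cases, with a sum of 8056 CPM in LIP against 4295 CPM in control, and their part was not tested.

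The pathway genes with the highest ratios in neutrophil-like cells were the chemokine genes *Cxcl1* and *Cxcl2*, the adhesion receptor gene *Icam1*, the superoxide dismutase gene *Sod2* and *Bcl2a1b*, which protects against apoptosis. *Cxcl1* had 131 UMIs in LIP and 0 in control, which is at least 3.64 higher on the log2 scale against a floor of 3 UMIs. *Cxcl2* was at 16685 CPM in LIP and 2514 CPM in control, a difference of 2.73 (2.65 to 2.82), *Icam1* at 273.2 and 42.9 CPM, *Sod2* at 377.9 and 60.1 CPM and *Bcl2a1b* at 474.1 and 103 CPM. *Bcl2a1b* has near-identical paralogs, so its count is uncertain. *Cxcl2* was also a leading gene of the *Ccl3* sub-cluster, which held no control cell, and the part of the sub-clusters in these ratios was not tested. At the other end were *Ripk1*, the kinase that joins TNFR1 signalling to cell death, at 39.2 CPM in LIP and 70.8 CPM in control with a ratio of −0.85 (−1.48 to −0.20), *Tnfaip8* at −0.59 (−0.98 to −0.19), and *Tnfsf13b*, *Itch* and *Tnfrsf21*, whose intervals included 0.

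In macrophage-like cells the median log2 ratio of all genes was 0.04, with 10.0% of them at least 2-fold higher and 6.06% lower. TNF-induced genes had 3 of 18 higher and 2 lower (median 0.10), negative feedback genes 1 of 14 higher and 0 lower (median 0.41), and receptor-proximal genes 2 of 20 higher and 1 lower (median 0.11). Other receptors had 3 of 8 higher (*Fas*, *Tnfrsf11a* and *Tnfrsf23*) at a median of −0.12, processing genes 1 of 7 (*Rhbdf2*) at −0.20 and other ligands 1 of 3 (*Tnfsf9*) with 1 lower (*Tnfsf13b*) at 0.25, these too named after their values were seen. *Tnfrsf11a* encodes RANK, the receptor of osteoclast precursors, and was at 34.0 CPM in LIP and 11.8 CPM in control. The highest ratios were those of *Sod2*, at 868 CPM in LIP and 122.6 CPM in control with 2.82 (2.48 to 3.18), *Cxcl1* with 2.35 (1.87 to 2.87), *Cflar*, which encodes the caspase-8 inhibitor c-FLIP, with 1.93 (1.44 to 2.46), *Tnip1*, a partner of A20, with 1.85 (1.19 to 2.60), and the death receptor gene *Fas* with 1.84 (0.62 to 3.34). The lowest was the dendritic cell maturation marker *Cd83*, at 294.7 CPM in LIP and 686.9 CPM in control with −1.22 (−1.42 to −1.03). It was followed by *Frmd8* with −0.97, *Map3k14*, the kinase of the non-canonical NF-κB pathway, with −0.93, *Relt* with −0.86 and *Tnfrsf21* with −0.67. Summed dendritic markers were at 269.7 CPM in LIP (10 of 10 found) and 952.3 CPM in control (9 of 10 found) macrophage-like cells, and mast cell markers at 48.8 CPM (3 of 6 found) and 759.1 CPM (6 of 6 found), while osteoclast markers were at 1167 CPM (5 of 6 found) and 78.9 CPM (3 of 6 found). The part of these cells in the macrophage-like values was not tested. Immediate-early and heat-shock genes summed to 9583 CPM in LIP and 11263 CPM in control there.

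*Tnfsf9*, the ligand of the 4-1BB receptor and named here after its values were seen, was at 316.5 CPM in LIP and 104.1 CPM in control macrophage-like cells, a difference of 1.60 (1.22 to 2.01). With *Tnfrsf9* in T-like cells, both the ligand and the receptor gene were therefore higher in the LIP library, in separate classes. The make-up of both classes differed between the libraries, as given above, and its part in these 2 genes was not tested.

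In T-like cells, where the median over all genes was 0.10 and 10.4% of them were at least 2-fold higher and 8.19% lower, TNF-induced genes had 4 of 12 higher in LIP and 1 lower (median 0.84), negative feedback genes 3 of 12 higher (*Nfkbib*, *Nfkbiz* and *Bcl3*; median 0.27) and receptor-proximal genes 0 of 10 in either direction (median 0.25). Other ligands had 2 of 3 higher, *Tnfsf8* and *Tnfsf11*, and 1 lower, *Tnfsf10*. *Tnfsf11* encodes RANKL, the cytokine that drives osteoclast formation, and was at 102 CPM in LIP (28 UMIs) and 37 CPM in control (14 UMIs), a difference of 1.46 (0.49 to 2.50). Other receptors had 1 of 4 higher, *Tnfrsf25*, and 1 lower, *Cd27*, a marker of naive and memory T cells, at 40.1 CPM in LIP and 161.2 CPM in control. Processing genes had 0 of 6 higher and 1 lower, *Zfp36l2*. These genes were likewise named after their values were seen, and they stand beside the unequal share of cells with *Trdc* given above.

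The patterns of the members over the 17 profiles (a class in a library, with at least 20 cells) were set against all genes by Pearson correlation of log2(CPM + 10), as a description with no test. The genes most like *Tnf* were *Tyrobp*, *Itgb2* and *Rab11fip1*, each with r = 0.96. *Traf1* was most like *Gch1* (0.97), *Zc3hav1* (0.96) and the NF-κB subunit gene *Nfkb1* (0.94), *Tnfaip3* most like *Cd244*, *Fyb* and *Batf* (0.96 to 0.97) and *Birc3* like *Snx20* (0.95) and *Skil* (0.92). *Tnfrsf1b* was nearest to *Slfn2*, *Trim30a* and *Fmnl1* (0.92 to 0.94), *Tnfsf14* to *Ipcef1*, *Plk3* and *Krt83* (0.95 each) and *Ltb* to *Tbc1d10c*, *Stat4* and *Rhof* (0.97 to 0.98). *Tnfrsf9* was most like *Gzma*, *Trdc* and *Cd163l1*, each with r = 0.99 over profiles of whole classes. Within T-like cells these genes parted. Control cells with a *Trdc* UMI held *Tnfrsf9* at 932.2 CPM and no *Gzma* UMI, and 1 control cell without *Trdc* held 90 *Gzma* UMIs. *Cd163l1* had no UMI in LIP cells without *Trdc*, where *Tnfrsf9* was at 444.9 CPM. *Tnfrsf1a* was nearest to *Ifitm2*, *Anxa3* and *Ifitm3* (0.89 to 0.95), and *Ltbr* to *Arhgap23*, *Ifitm3* and *App* (0.91 to 0.93).

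Among the members themselves *Tnf* and *Tnfaip3* had the closest pattern (r = 0.94), and *Tnf* and *Tnfrsf1b* had r = 0.87. *Tnfrsf1a* and *Ltbr* had r = 0.78, and *Tnf* and *Tnfrsf1a* r = −0.02. *Ltb* and its receptor gene *Ltbr* had r = −0.87, so the lymphotoxin ligand and receptor genes were at high levels in different classes.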

How the data were processed

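The authors sequenced 2 droplet libraries (10x Genomics) and deposited, for each, the raw UMI counts per gene and barcode made with Cell Ranger on mm10; the methods name version 3.0 and the matrix headers 3.1.0. The members and lists were chosen with earlier results of these data known. Here, barcodes with 200 to 7500 genes, at most 60000 UMIs and at most 10% mitochondrial UMIs were kept, which left 10560109 UMIs in LIP and 13407122 in control. Integration of the libraries and clustering used Seurat 5.3.0 under R 4.3.3 (2000 variable genes, 30 dimensions, resolution 0.1, sub-clusters at 0.2), with all pathway genes left out of the variable genes. A cluster was named "-like" from at least 3 markers, and 2 sub-clusters stayed unnamed. The names were rebuilt, so they may differ from those of the study. Scrublet in scanpy 1.11.5 called 1 doublet in LIP and 4 in control. They stayed in the main values. The LIP epithelial-like cell with 96 UMIs of T cell markers was not among them, and whether doublets remain was not tested.

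UMIs were summed per class and library, and ratios of CPM carry exact conditional binomial 95% intervals, levels Poisson intervals and shares Clopper-Pearson intervals (scipy 1.17.1). A count of 0 was compared through a floor of 3 UMIs per class and library. Genes with at least 20 UMIs over both libraries were counted as higher or lower past 2-fold. With 1 library per condition there was no test. Besides the members, the text names the 5 highest and 5 lowest pathway genes with at least 50 UMIs in neutrophil-like and macrophage-like cells, and the 3 genes most like each member, of which 1 is not reported here. The alternatives were other clustering, filtering, doublet, scaling, weighting and minimum settings. Promoter sequences and starts come from RefSeq, and gene positions from the GENCODE M21 annotation.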

Additional observations from a re-analysis of the deposited data

Results flagged for a closer look

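Barcodes left out by the filters, 276 of LIP and 286 of control, entered no comparison above. Among them *Tnf* and *Traf1* were higher in LIP than in control. *Tnf* had 49 UMIs in LIP (13.3 CPM) and 6 in control (1.96 CPM), a log2 ratio of 2.77 (1.54 to 4.28). *Traf1* had 38 UMIs in LIP (10.3 CPM) and 6 in control (1.96 CPM), a log2 ratio of 2.40 (1.15 to 3.93). *Tnfrsf9* had 15 UMIs in LIP and 0 in control, at least 2.06 higher, and the other members did not pass 2-fold. *Tnf* and *Traf1* each rest on 6 control UMIs, and all values on 1 library per condition. These barcodes were not split into cell classes, unlike the cells compared above, and the part of an unequal mix of cells was not tested.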

How the results depend on the processing

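No paired analysis was possible because each condition has 1 library, and leaving out a replicate was not possible for the same reason. Resolution 0.3, clustering without integration and clustering with the pathway genes allowed kept 46 of 46 values each within their interval or within 1.5 times the count. With 15 dimensions the ratio of *Tnfrsf1a* in fibroblast-like cells was 0.32 in place of −0.27, since the *Ibsp* sub-cluster was a class of its own there, and 1 member was at least 2-fold lower in neutrophil-like cells. A mitochondrial limit of 5% gave 1.96 for *Tnfrsf1b* and 2.20 for *Tnfaip3* in neutrophil-like cells, and no ratio or count for macrophage-like and T-like cells, which then lacked 20 cells so named in each library. There the LIP level of *Tnf* in macrophage-like cells was 1021 CPM and their share of its UMIs 31.0%. Only a sub-cluster of 31 LIP cells led by *Ccl5*, *Arg1* and *Saa3* carried that name in this setting, so the values do not describe the class used above. Without the barcodes marked by Scrublet *Tnf* in macrophage-like cells was at 1.18, and 3 members were at least 2-fold higher there. Cells were clustered again in this setting. The macrophage-like class then held sub-clusters of 66 and 19 LIP cells and of 53 and 11 control cells, in place of 84 and 43 cells. The part of this changed class in the values was not tested. With every cell weighing the same, *Tnf* was at 1.44, *Tnfrsf1b* at 0.87 and *Tnfaip3* at 1.22 in neutrophil-like cells, where 4 members in place of 6 were higher and 1 lower and *Tnfsf14* was at 0.31. *Tnf* was then at 1.55 and *Birc3* at 0.06 in macrophage-like cells, with 3 members higher and 1 lower. Shares of cells with a UMI moved in 3 of 4 cases when cells were thinned to 2000 UMIs. Keeping more UMIs per cell raises such a share by design, so this setting cannot show whether the shares are stable.

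The remaining settings were chosen after seeing the data. Within the *Csf3r* sub-cluster *Tnf* was at 1.22, *Tnfrsf1b* at 0.47 and *Tnfaip3* at 1.03. Within the *Ltf* sub-cluster *Tnf* was at −0.07 (−1.20 to 1.14, from 20 and 11 UMIs), so its sign cannot be told there. *Tnfrsf1b* was at 0.07 (−2.16 to 2.69, from 6 and 3 UMIs) and *Tnfaip3* at 1.25 (0.29 to 2.34) in that sub-cluster. The *Ccl3* sub-cluster, left out of both, was drawn apart only under the main clustering setting. Without the cell with the most UMIs of the gene in each library *Tnf* in macrophage-like cells was at 1.49 and 3 members were higher. Except where stated, the cause of a change was not tested. The 52 control neutrophil-like cells and the 27 LIP T-like cells limit what depth can show.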
